A study of Rattus norvegicus with 30 samples.

Results

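The intervals described here are 3688 regions of the control total H3 peak list in which the peak caller marked 3 or more separate summits. A summit is the base with the most DNA fragments within an enriched region, and the list holds 1 row for each summit, so that an interval with 3 summits stands on 3 rows. The members are all distinct intervals, by chromosome, start and end, that are listed on 3 or more rows. They make up 2.18% of the 169297 distinct intervals of the list, of which 16044 have 2 summits and 149565 have 1. They hold 12142 summits (6.27% of the rows) and cover 6.16 Mb (6.42% of the bases of the list).

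The study asked how obesity of the mother before and during pregnancy alters chromatin in the brain of the embryo. Female Wistar rats were fed normal chow (control) or a high-fat diet (HFD) until obese, and both were mated with healthy males. Frontal cortex was taken from their embryos at E14.5, and chromatin immunoprecipitation sequencing (ChIP-seq) was done with 5 antibodies, against total H3, pan H4, H3K4me3, H3K27me3 and H4K16Ac. Each antibody and diet has 3 libraries, 30 in all, but 1 peak list for the 3 libraries together, so there are 10 lists and no value of a single library. Total H3, pan H4 and H3K4me3 were called as narrow peaks, which have summits, and H3K27me3 and H4K16Ac as broad peaks, which have none. In the libraries of control total H3, replicate 3 carries labels of both diets. It is taken as control because its title and its listed peak file name that diet, and the list from which the members come cannot be given without it. The tissue holds all cell types of the cortex, so that a change in the share of a cell type and a change within cells cannot be told apart.

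Histones H3 and H4 form the core of the nucleosome, around which DNA is wrapped, and antibodies against their unmodified parts report where nucleosomes were captured, whatever mark they carry. H3K4me3 marks promoters of active or poised genes, H3K27me3 is laid down by the Polycomb repressive complex PRC2 on silenced developmental genes, and H4K16Ac is an acetyl mark of open chromatin. In developing neural tissue, promoters that hold H3K4me3 and H3K27me3 together are a known feature of genes for cell fate.

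Of the 3688 intervals, 2843 have 3 summits, 666 have 4, 136 have 5, 35 have 6, 5 have 7 and 3 have 8. The number of summits chose the members, and width, spacing and height belong to the same call, so these are given as a description. The median width was 1607 bp (5th to 95th percentile 1084 to 2487 bp), against 998 bp for intervals with 2 summits and 420 bp for those with 1. At the edge of the rule, intervals with 3 summits had a median width of 1500 bp. Per kb of interval the members had a median of 2.01 summits, beside 2.004 in intervals with 2 summits and 2.38 in those with 1. The most extended member spans 3865 bp, and the shortest 674 bp.

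Neighbouring summits lay a median of 460 bp apart over the 8454 distances within members. The quartiles were 339 and 599 bp, the 5th and 95th percentiles 229 and 850 bp, and the range 40 to 1560 bp. Intervals with 2 summits had nearly the same median, 462 bp. The distances formed 1 broad hump with its fullest bin at 300 to 350 bp, which held 10.7% of them, and 65.0% lay between 300 and 649 bp. Distances under 200 bp, about the length of DNA on 1 nucleosome with its linker, made up 2.79%. The shortest interval that the caller kept in this list is 276 bp, and 965 distances (11.4%) fell below that length. Among the 2843 members with 3 summits, the length of the first distance bore no relation to that of the second (Pearson's r 0.0019 and Spearman's rho −0.0046 across intervals of 1 list). Within a member the smaller distance was a median of 0.629 times the larger, and in 909 members (24.6%) it was at least 0.8 times the larger. The outermost summits sat a median of 240 bp inside the edge of the interval.

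Intervals were chosen by the same rule in the other narrow lists. The median spacing was 440 bp in HFD total H3, where the shortest interval is 267 bp, and in pan H4 471 bp (control) and 483 bp (HFD), where it is 283 and 285 bp. For H3K4me3 the medians were 515 bp (control) and 504 bp (HFD), with shortest intervals of 289 and 282 bp. Single distances varied within each list, with quartiles of 326 and 577 bp in HFD total H3 for example.

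**Figure D1:**
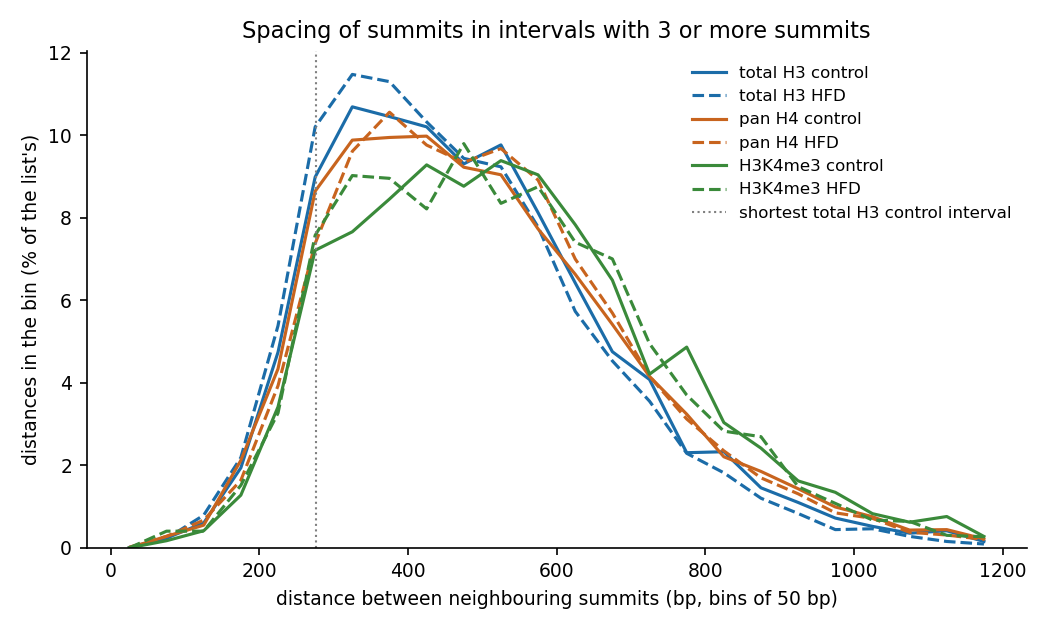
Distance between neighbouring summits (horizontal axis, bp, in bins of 50 bp up to 1200 bp) as a percent of all distances of the list (vertical axis), for intervals with 3 or more summits in each of the 6 narrow lists. Solid lines are control, dashed lines HFD, and the dotted line marks the shortest control total H3 interval (276 bp). All lists form 1 broad hump, with total H3 shifted to shorter and H3K4me3 to longer distances.

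MACS2 compares the pileup, which is the number of fragments over the summit, with a local background, and both could be recovered from the listed values. Whether this background came from input DNA or from the ChIP fragments around the summit is not given. The strongest summit of a member had a median pileup of 31 fragments over a background of 5.12, against 20 over 3.02 in intervals with 2 summits and 10 over 1.48 in those with 1. The members therefore stood on more fragments and on a higher background at the same time. Their fold enrichment, which is pileup plus 1 over background plus 1, had a median of 5.22 at the strongest summit (quartiles 4.05 and 6.50), below the 5.55 of intervals with 2 summits and above the 4.04 of those with 1. At the weakest summit of each member it was 3.19. With more summits the strongest one fell, from a median fold of 5.39 with 3 summits to 4.97 with 4, 4.48 with 5 and 3.98 with 6. The most frequent background in the list is 1.02 fragments, and in 239 members (6.48%) the strongest summit stood on more than 10 times as much, where 0.703% of all intervals did. The highest pileup among these was 2552 fragments.

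Summits of 1 member were of unequal height. The weakest had a median of 0.667 times the fold enrichment of the strongest, and the ratio was at least 0.8 in 771 members (20.9%) and under 0.5 in 667 (18.1%). In members with 3 summits the strongest was the middle one in 1057 (37.2%), the last along the chromosome in 962 (33.8%) and the first in 824 (29.0%), with ties given to the earlier summit.

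Single members show these features. Among the 3 members with 8 summits, the smallest q and the highest pileup (75 fragments over a background of 24.2) belong to chr1:187897899-187901763 (rn6). Its 8 summits lie between 237 and 2988 bp from its start, with folds from 2.22 to 3.02, and it holds 9 summits of HFD total H3, 8 of control and 6 of HFD pan H4, and 4 of control and 7 of HFD H3K4me3. The other members with 8 summits are chr7:141596374-141599984, with a strongest fold of 3.87 and 8 HFD total H3 summits, and chr1:72363415-72366472, with a fold of 3.14 and 6 HFD summits. Neither matched this number in any pan H4 or H3K4me3 list. The next interval, chrX:14951674-14954645, had 7 summits in each of the 6 narrow lists. Each of its 7 summits fell within 15 to 70 bp over the 6 lists, the tightest at 2111 to 2126 bp from the start, and the fourth summit was the weakest in every list (fold 1.65 to 1.96). This interval has a strongest pileup of 192 fragments over a background of 34.7. An equal number of summits in all 6 lists was found in 59 members (1.60%), 6 of them with 4 or more summits, and in both total H3 and both pan H4 lists in 336 (9.11%). The shares over all intervals are not given for these 2 counts, which are not read as particular to members.

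The other members with 7 summits were chr4:5692548-5695459, chr10:90262391-90265684, chr16:61088653-61091843 and chr9:88084081-88087429. HFD total H3 had 6, 6, 5 and 7 summits in them in this order, and control pan H4 had 2, 4, 5 and 4. Members with 6 summits and the smallest q were chr1:148641925-148644579, with a pileup of 627 over a background of 99.6, and chr5:146403204-146406131, with 458 over 54.4. They held 6 and 7 HFD total H3 summits and 6 control pan H4 summits each. At the latter the strongest summit had a fold of 8.29, the highest among the 10 members with the most summits.

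The 5 members with the highest fold all had 3 summits. At chr4:89643347-89644608 the folds of the summits were 19.9, 2.05 and 2.31 at 299, 954 and 1147 bp from the start. The strongest summit was found in all 6 lists, between 282 and 309 bp from the start, with folds of 17.1 in HFD total H3, 16.5 in control and 18.4 in HFD pan H4, and 14.7 in control and 13.0 in HFD H3K4me3. Of the 6 lists, 2 had 3 summits in the interval and 4 had 2. The others were chr7:1012783-1014616, chr7:1465965-1467401, chr8:80115619-80116951 and chrX:9761410-9763255. Along the chromosome, the folds of their summits were 2.62, 2.34 and 16.7 in the first, 8.63, 16.2 and 1.83 in the next, 5.82, 8.33 and 15.5 on chromosome 8 and 15.4, 2.18 and 5.34 on chromosome X. The next highest fold thus ranged from 2.62 to 8.63 in these 4 members.

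Of the longest intervals, those not yet named were chr10:37312116-37315782 with 6 summits in 3667 bp, chr1:11909649-11913072 with 6 in 3424 bp and chr14:46679831-46683226 with 3 in 3396 bp. The last of these had the widest spacing of all members, 1158 and 1560 bp. HFD total H3 and both pan H4 lists had 6 summits in it, control H3K4me3 had 6 and HFD H3K4me3 had 4. Its strongest summit had a pileup of 396 fragments over a background of 143. All of the 18 intervals named here were covered in part by an interval of each of the 9 other lists, with the smallest share, 18.5% of the bases, for HFD H3K27me3 at the interval of chromosome 10 with 3667 bp.

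**Figure D2:**
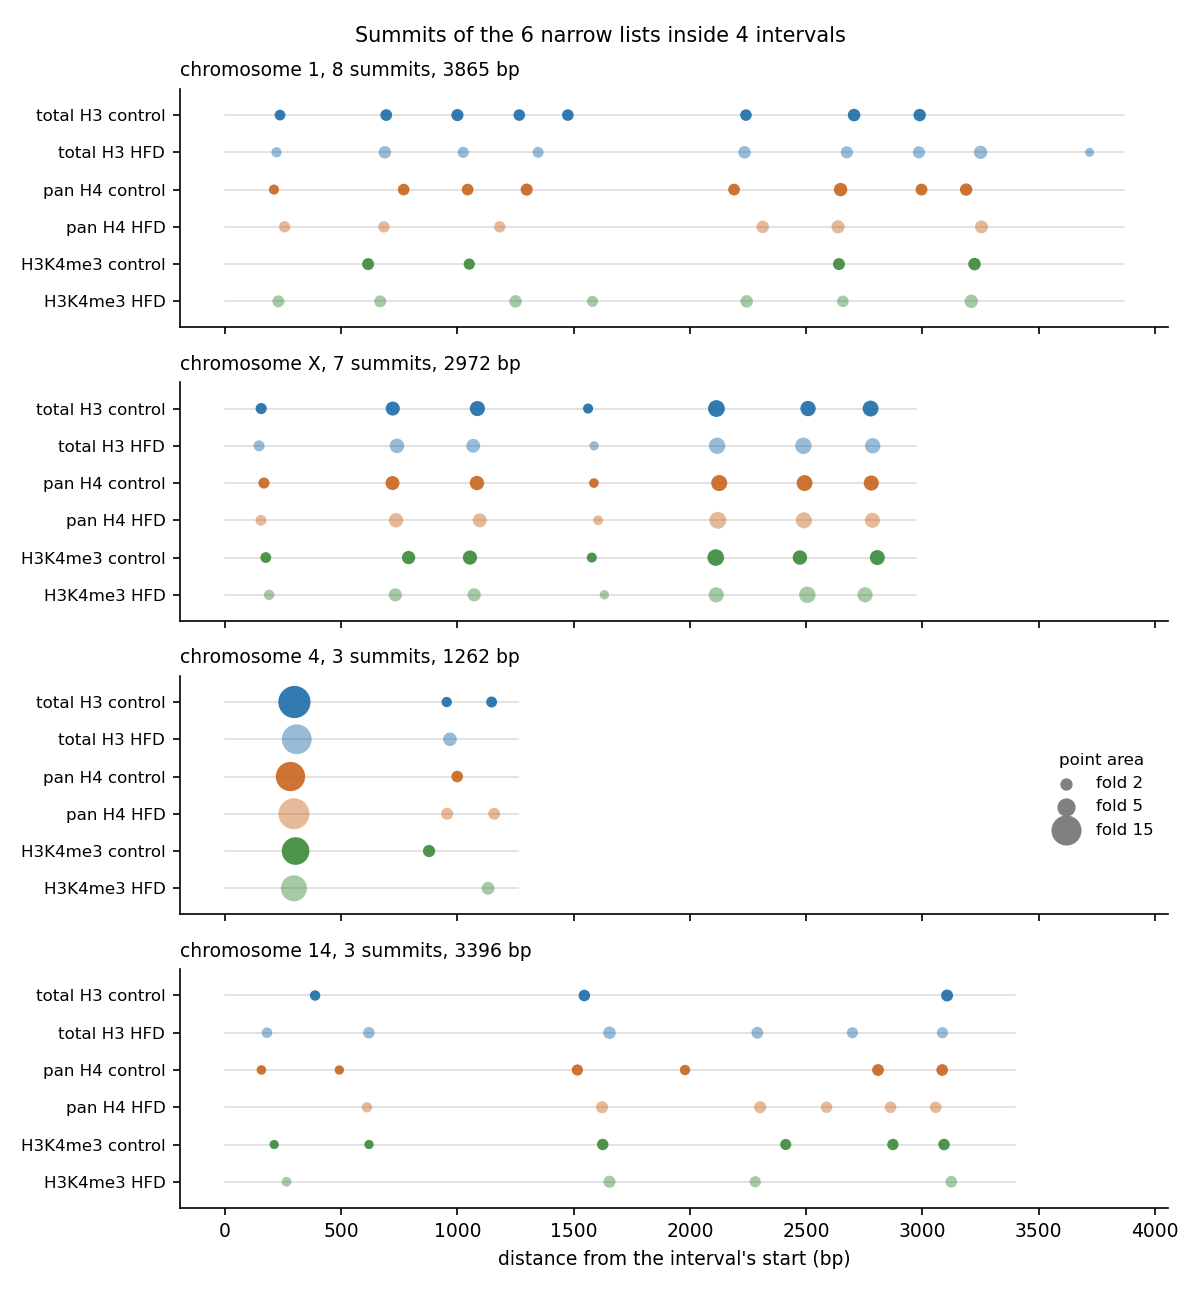
Place of the summits (horizontal axis, bp from the start of the interval) in the 6 narrow lists (rows, darker for control, paler for HFD) inside 4 of the named members. The area of a point is in proportion to the fold enrichment. The 7 summits of the chromosome X member line up in all 6 rows, the strongest summit of the chromosome 4 member lies within 282 to 309 bp in each row, and the chromosome 14 member has 3 summits in control total H3 and 6 in HFD total H3.

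Members were overlapped by the other lists more often than the intervals of the list as a whole. An overlap is counted from 1 bp. Pan H4, the other core histone, overlapped 99.6% of the members in control and 99.9% in HFD, where the share over all 169297 intervals was 74.7% and 78.4%. HFD total H3 overlapped 99.8%, against 71.8% over all intervals. H3K4me3 overlapped 95.9% of the members in control (95% Wilson interval 95.2% to 96.5%) and 95.3% in HFD (94.5% to 95.9%), where all intervals had 48.6% and 46.0%. H4K16Ac lay on 99.97% in either diet, that is all but 1 member, against 86.8% in control and 83.9% in HFD over all intervals. H3K27me3 lay on 90.6% in control (89.6% to 91.5%) and on 76.7% in HFD (75.3% to 78.0%), against 31.1% and 20.9%. With only rows of −log10 q of at least 5 in every list, the HFD share was 1.77% of 1642 members and the control share 78.4%. The cause of this gap was not tested. At that threshold H4K16Ac lay on 75.5% of the 1642 members in control and on 83.9% in HFD. The Wilson intervals cover counting error only, since regions of 1 pooled list are not replicates, and no test was made.

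By bases, pan H4 covered 91.3% of the members' length in control, H4K16Ac 96.8%, H3K4me3 77.6% and H3K27me3 74.7%. In HFD these shares were 93.8%, 96.4%, 75.5% and 48.9%. Over the length of all intervals they were 71.9%, 84.4%, 47.9% and 33.8% in control and 76.4%, 81.7%, 44.8% and 19.4% in HFD. The broad intervals that lay on members were wide for their lists. Their median width was 1519 bp for control H3K27me3, where the whole list had 714 bp, and 1102 bp for HFD H3K27me3, where it had 488 bp. The H4K16Ac intervals on members had medians of 2030 bp (control) and 1985 bp (HFD), against 794 and 764 bp.

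**Figure D3:**
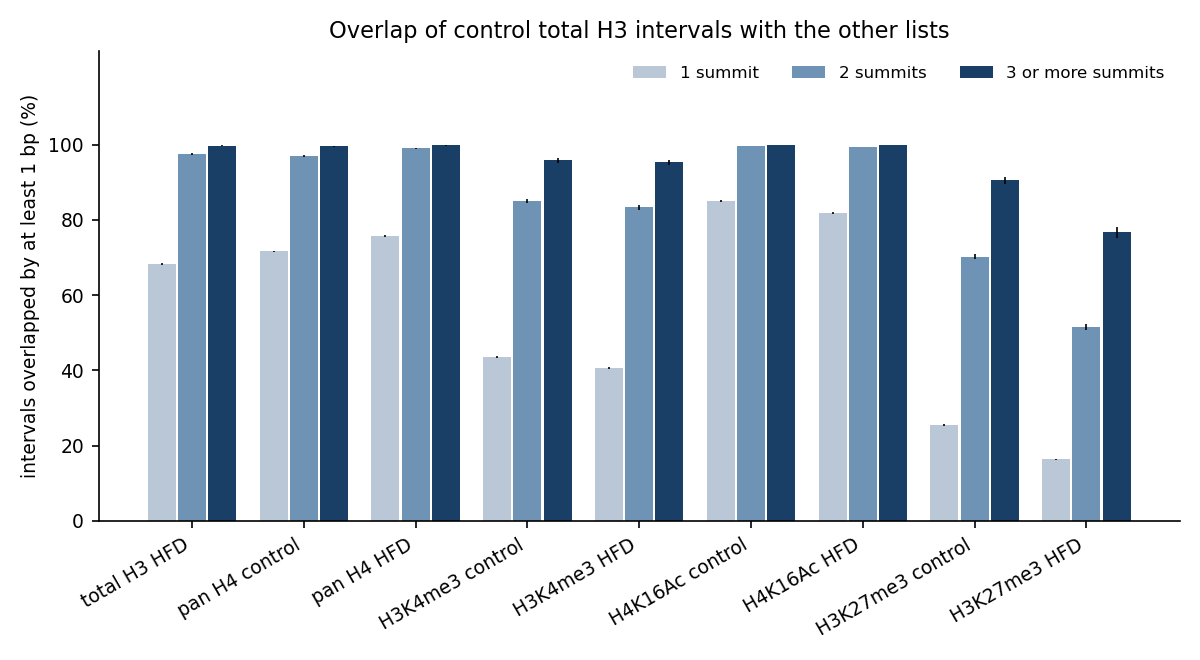
Share of control total H3 intervals (vertical axis, percent) overlapped by at least 1 bp by each of the 9 other lists (horizontal axis), for intervals with 1, with 2 and with 3 or more summits. Error bars are 95% Wilson intervals and cover counting error only. The share rises with the number of summits in every list, from 25.4% to 70.2% and 90.6% for control H3K27me3.

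A long interval has more room for an overlap, so intervals of the same width class were set side by side. Width could still differ between summit numbers within a class, and its part there was not tested. Among intervals of 1000 to 1499 bp, control H3K27me3 lay on 85.0% of the 1378 with 3 or more summits (83.0% to 86.8%), on 80.5% of the 6899 with 2 (79.6% to 81.5%) and on 68.3% of the 4361 with 1 (66.9% to 69.7%). For control H3K4me3 these shares were 93.3%, 91.7% and 84.4%, and for HFD H3K27me3 65.7%, 63.2% and 53.9%. In the class of 1500 to 1999 bp, control H3K27me3 lay on 93.5% with 3 or more summits, 88.9% with 2 and 69.4% with 1. In that of 500 to 999 bp, which holds 88 members, it lay on 64.8% (54.4% to 73.9%), 59.1% and 44.0%, and HFD H3K27me3 on between 39.8% and 60.2% of the members (Wilson interval), 38.6% with 2 summits (37.5% to 39.7%) and 29.3% with 1. Among intervals of 1000 to 1499 bp the members had the lower strongest fold, a median of 5.21 against 6.23 with 2 summits and 6.37 with 1. Among those of 1500 to 1999 bp, which hold 1501 members, their median of 5.55 lay below the 5.996 with 2 summits and above the 5.19 with 1.

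Where members carried a mark, the strongest fold enrichment of the overlapping H3K4me3 interval had a median of 5.69 in control, against 4.003 over all overlapped intervals. Its −log10 q had a median of 16.8, against 3.30. For control H3K27me3 the median fold was 3.98 against 3.38, and 58.7% of the overlapped members had a −log10 q of at least 5, against 33.3%. HFD H3K27me3 intervals were weak, with a median fold of 3.09 on members against 3.08 over all, a median −log10 q of 1.03, and 1.34% of the overlapped members at a −log10 q of at least 5, against 1.81%. For H4K16Ac the median fold on members was 3.16 in control, against 3.21 over all overlapped intervals, and 3.31 in HFD, against 3.28.

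Summits of the other lists lay near the members' summits rather than between them. Of the 12142 summits, 38.0% had a summit of HFD total H3 within 50 bp (95% Wilson interval 37.1% to 38.9%), while of the 8454 midpoints between neighbouring summits 9.05% did (8.46% to 9.68%). For pan H4 these shares were 34.98% and 9.34% in control and 39.96% and 8.22% in HFD. For H3K4me3 they were 24.99% and 7.26% in control and 26.2% and 6.99% in HFD. The shares depend on the distance chosen. For HFD total H3 they were 22.1% and 4.33% within 25 bp, and 57.2% and 19.8% within 100 bp. For control H3K4me3 they were 14.2% and 3.56% within 25 bp, and 38.8% and 15.7% within 100 bp. The median distance to the nearest summit was 77 bp for HFD total H3, 88 bp for control pan H4 and 173 bp for control H3K4me3. Of the summits of other lists that fell between the outermost summits of a member, 72.8% to 76.2% were nearer to a total H3 summit than to a midpoint, although both take up the same length of each distance. The share within 50 bp was higher for the summits of other intervals for HFD total H3 and for pan H4. For HFD total H3 it was 41.3% (41.1% to 41.6%) in intervals with 1 summit and 44.1% in those with 2, and for HFD pan H4 it was 49.1% and 48.3%. For control pan H4 it was 39.7% and 40.6%. Control H3K4me3 had 21.6% with 1 summit and 29.3% with 2, on either side of the members, and HFD H3K4me3 had 20.8% and 29.1%.

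**Figure D4:**
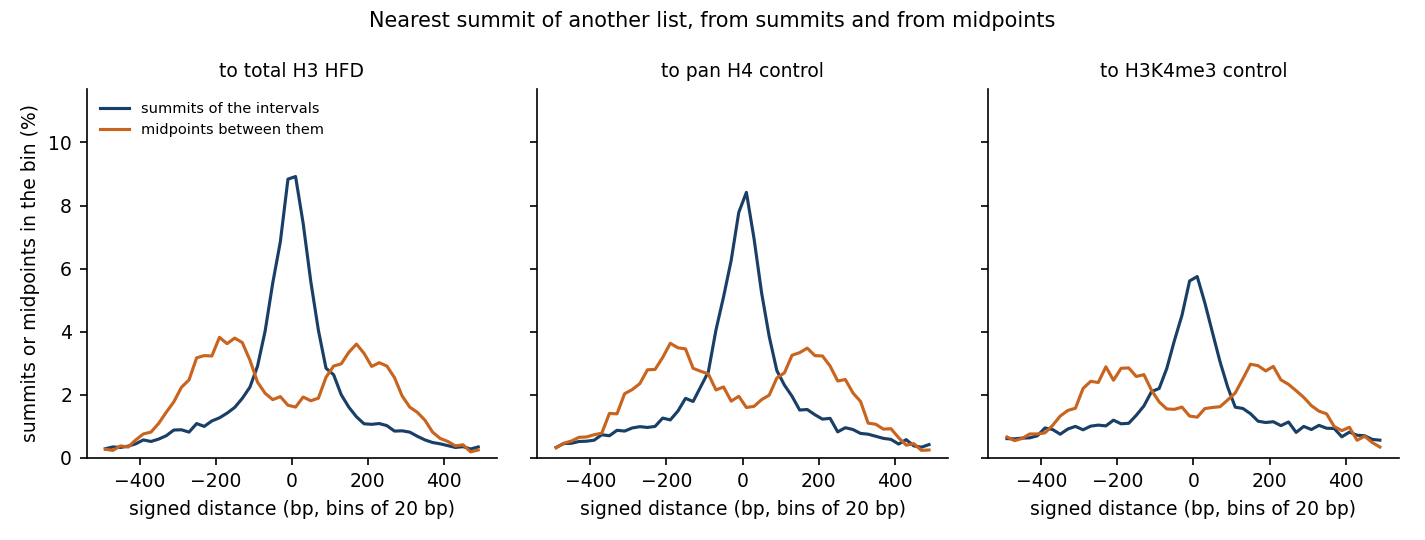
Signed distance (horizontal axis, bp, in bins of 20 bp) to the nearest summit of HFD total H3, control pan H4 and control H3K4me3, as a percent of all starting points (vertical axis), from the 12142 summits of the members (dark) and from the 8454 midpoints between neighbouring summits (orange). The summits give a peak at 0 in all 3 panels, and the midpoints a dip at 0 with a shoulder on either side.

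The agreement was better for strong summits. A HFD total H3 summit lay within 50 bp of 43.8% of the strongest summits of members, 37.4% of those second in strength, 34.5% of those in the next place and 31.6% of those in the fourth. For control pan H4 the same series was 40.5%, 33.7%, 32.1% and 30.9%. Summits of HFD total H3 and both pan H4 lists all lay within 50 bp of 1644 summits (13.5%), and none of them did for 4190 (34.5%). Every summit had a HFD total H3 summit within 50 bp in 218 members (5.91%), and no summit had one in 845 (22.9%). In intervals with 1 summit, that summit had one in 41.3%. The shares over all intervals are not given here, so these counts are not read as particular to members.

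In the HFD list the same regions were enriched, but often with fewer summits. Of the 3688 members, 2054 (55.7%, 95% Wilson interval 54.1% to 57.3%) held 3 or more HFD total H3 summits, where 2.16% of all control intervals did. Of the control intervals with 2 summits, 8.08% did. Width was not held equal in these shares. Per kb the members held 1.64 HFD total H3 summits, against 1.57 in intervals with 2 summits and 1.47 over all intervals. The number of HFD summits was equal to that of control in 1300 members (35.2%), lower in 1977 (53.6%) and higher in 411 (11.1%), with a mean of 2.74. Control intervals with 2 summits held 2 HFD summits in 47.9%, 1 in 41.3% and none in 2.72%. Those with 1 summit held 1 in 62.2% and none in 33.9%. Fewer HFD than control summits were thus common in each class. As members were chosen for a high number in control, nothing about the diet is read from the lower number in HFD. Its cause was not tested. In the reverse count, 47.3% of the 4151 HFD intervals with 3 or more summits lay on a member. Of the members, 53.3% overlapped such an HFD interval, as did 2.63% of all control intervals. A further 33.0% of the members overlapped an HFD interval with 2 summits and 13.6% one with 1.

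The other narrow lists were counted in the same way. In control pan H4, 1822 members (49.4%) held 3 or more summits, against 1.82% of all intervals, and in HFD pan H4 2038 (55.3%), against 2.04%. Of the intervals with 2 summits, 6.40% and 7.01% did. Width was not held equal in these shares. Per kb the members held 1.53 control and 1.61 HFD pan H4 summits, against 1.49 and 1.61 over all intervals. The shares of members were lower for H3K4me3, with 811 members (22.0%) in control and 896 (24.3%) in HFD, against 0.647% and 0.699% of all intervals. Of the intervals with 2 summits, 1.58% and 1.51% held as many. Per kb the members held 1.10 control and 1.13 HFD H3K4me3 summits, against 0.913 and 0.875 over all intervals. Members with an interval of 3 or more summits also in HFD total H3 and both pan H4 lists numbered 1071 (29.0%). Over all intervals the share was 0.859%. Of the 1071, 1066 (99.5%) lay on a control H3K4me3 interval, as did 95.9% of all members and 48.6% of all intervals. Among members of 2000 bp or more it was 99.3%, so the count is not read as particular to the 1071.

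**Figure D5:**
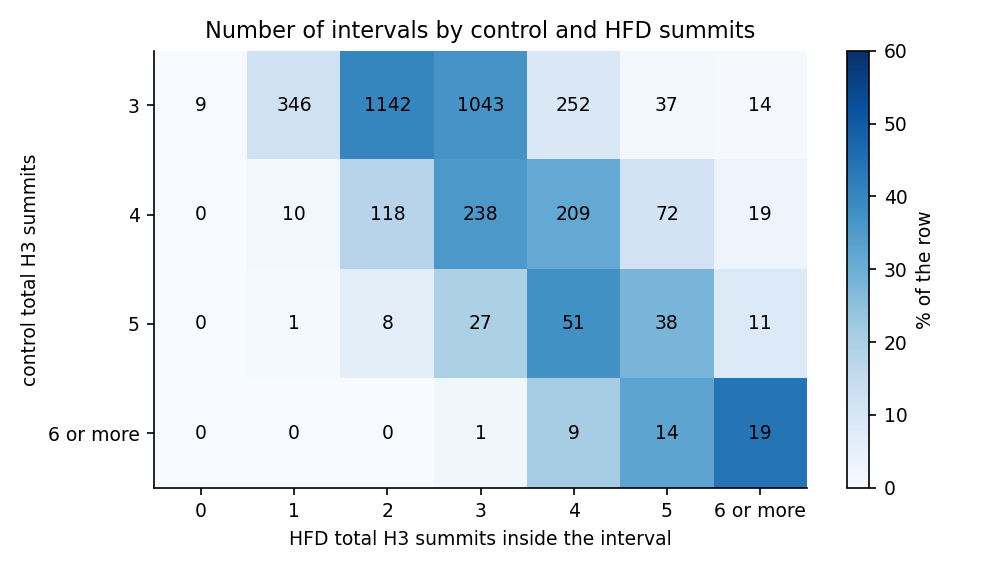
Number of members (figures in the cells) by their control total H3 summits (rows) and the HFD total H3 summits inside them (columns). The shade gives the percent of the row, from 0 to 60. In members with 3 control summits, 1142 held 2 HFD summits and 1043 held 3, and of those with 6 or more, 19 held 6 or more.

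The 239 members on a background of more than 10 times the most frequent one differed from the other 3449 in several values. Their median fold was 3.66 against 5.32, and their median width 1873 bp against 1593 bp. A HFD interval with 3 or more summits lay on 75.7% of them, against 51.7%. Of their summits, 43.1% had a HFD total H3 summit within 50 bp, against 37.6%. Control H3K27me3 lay on 97.5% against 90.1%. The part of the background in these values was not tested. When the shares and the median spacing were taken again over the other 3449 members alone, only the overlap with HFD H4K16Ac, at 100%, left the 95% interval of the value as given.

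Most members carried all 3 marks. In control, H3K4me3, H4K16Ac and H3K27me3 lay together on 3267 members (88.6%), H3K4me3 and H4K16Ac without H3K27me3 on 269 (7.29%), H4K16Ac alone on 79 (2.14%) and H4K16Ac with H3K27me3 on 72 (1.95%). With only rows of −log10 q of at least 5, the share with all 3 marks was 60.8%. The share with H3K4me3 and H4K16Ac without H3K27me3 was then 11.7%, and with 4 or more summits it was 2.49%. The share with H4K16Ac alone was 10.4% where a mark had to cover at least 50% of the member, and was 0.237% of the members with 4 or more summits. Over all intervals the 4 shares were 25.3%, 21.5%, 34.8% and 5.21%, and 65.7% of the intervals with 2 summits held all 3 marks. The combination of 3 marks was found on wider and stronger members, with a median width of 1646 bp and a strongest fold of 5.43, against 1252 bp and 3.34 for H4K16Ac alone. The median spacing of summits was 463 bp for all 3 marks (7576 distances), 450 bp for H3K4me3 with H4K16Ac (563), 413 bp for H4K16Ac alone (161) and 431 bp for H4K16Ac with H3K27me3 (152), and these differences were not tested. Presence within 1 interval does not show that the marks sat on the same nucleosome or in the same cells.

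In HFD, all 3 marks lay on 2777 members (75.3%) and H3K4me3 with H4K16Ac on 737 (20.0%), against 17.1% and 27.4% of all intervals. These counts use HFD H3K27me3 intervals as deposited, of which few reach a −log10 q of 5 (1.34% of the overlapped members), and the overlap falls to 1.77% where every list is held to that threshold. Of the 3267 members with all 3 in control, 2663 (81.5%) had all 3 in HFD and 546 (16.7%) had H3K4me3 and H4K16Ac left, against 53.8% and 34.3% of the 42767 intervals of any summit number with all 3 in control. With 2 summits these shares were 65.4% and 28.9%. Width was not held equal here. H3K27me3 was listed in both diets on 2708 members, in control only on 632, in HFD only on 121 and in neither on 227, or 73.4%, 17.1%, 3.28% and 6.16%. Over all intervals these shares were 15%, 16.1%, 5.94% and 63.0%. Those with H3K27me3 in both diets had a median control H3K4me3 fold of 6.65, those with it in control only 3.96 and those with it in HFD only 3.14. H3K4me3 itself was listed in both diets on 3427 members (92.9%) and in neither on 64 (1.74%), against 33.7% and 39.2% of all intervals.

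Where an antibody was listed in both diets on a member, the ratio of the HFD to the control fold enrichment was taken. For H3K27me3 its median was 0.727 over 2708 members, and HFD was higher in 18.1% of them. Over all intervals with the mark in both diets it was 0.753, so that the lower value was general to the list. The most frequent background, which is approximate in broad lists, was 0.351 fragments in the HFD H3K27me3 list and 0.880 in the control one. Whether this reflects depth is not known, and the part of this difference in the ratio was not tested. The median ratio on members was 1.03 for total H3 (0.998 over all), 1.15 for pan H4 (1.24), 0.988 for H3K4me3 (0.973) and 1.04 for H4K16Ac (1.02). With only 1 list per diet, none of these can be set against the spread between replicates.

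Members were found on every numbered chromosome and on chromosome X. They made up between 1.70% of the intervals of chromosome 13 (105 of 6162) and 2.72% of chromosome 10 (309 of 11378) among the numbered chromosomes, and 3.10% on chromosome X (107 of 3449, 95% Wilson interval 2.57% to 3.74%). None of the 69 intervals on chromosome Y was a member (Wilson upper limit 5.27%). The nearest other member lay a median of 115 kb away, and 318 members (8.62%) had another within 10 kb. The same values for other intervals are not given, so neither clustering nor an even spread is read from these. No rn6 annotation or sequence was used here, so that genes and bases at these positions are not given.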

How the data were processed

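ChIP-seq reads of rat E14.5 cortex were aligned by the authors to rn6 with Bowtie2, and peaks were called with MACS2. Versions and options are not given in the sources used here. In the deposited lists, fold enrichment is the ratio of pileup plus 1 to background plus 1, and the authors give a −log10 p-value and, as a score adjusted over the genome, a −log10 q-value. In narrow lists these belong to a summit, whose offset from the start the authors also deposited. In broad lists they are averages. Library totals are not used here. The most frequent background is given in place of depth, although the source of the background is not known. It was 1.02 (control) and 1.13 (HFD) fragments for total H3, 1.64 and 1.80 for pan H4, and 1.23 and 1.08 for H3K4me3. For H4K16Ac it was 1.61 and 1.75, and for H3K27me3 0.880 and 0.351.

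Pileup k and background b were solved from fold = (k + 1) / (b + 1) and the Poisson p of more than k. A whole k met the listed −log10 p within 0.1% for 100% of narrow rows and, by list, 7.32% to 33.3% of broad rows, so that broad backgrounds, taken from the most frequent row, are approximate. Intervals, summits, overlaps and distances were counted with pandas 2.3.3, numpy 2.4.6 and scipy 1.17.1 under Python 3.11.15 (plots by matplotlib 3.10.9), and the functions were tested on simulated data (300 of 300 correct). Shares have 95% Wilson intervals (counting error only). No test was run, since each antibody and diet has 1 list of 3 libraries. The regions named singly are the 10 members with the most summits (ties by smallest q), the 5 with the highest fold and the 3 longest of the others. Members and lists were chosen with earlier results of these data known. Alternatives were a −log10 q of at least 5, 4 or more summits, summits nearer than 150 bp counted as 1 and placed chromosomes. Others were 50% coverage, 25 and 100 bp, equal list length and members of 1 width class. A local background of at most 10 times the most frequent was added after seeing the data.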

Additional observations from a re-analysis of the deposited data

How the results depend on the processing

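No paired analysis was possible because the 3 libraries of a group share a list, so that their numbers pair nothing, and leaving out a replicate was not possible either. A share or median was taken as moved when it left the 95% interval of the value as reported, and a number when it changed by more than 1.5 times. Of 141 values under the alternatives, 73 moved. None moved with chromosomes 1 to 20, X and Y only or with total H3 lists of equal length.

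With only rows of −log10 q of at least 5, 1642 members remained, with a median spacing of 435 bp. Their overlap was 99.3% with HFD total H3, 99.1% and 100% with control and HFD pan H4, 94.0% and 92.9% with H3K4me3, 75.5% and 83.9% with H4K16Ac, and 78.4% and 1.77% with H3K27me3. The share of summits within 50 bp was 37.1% for HFD total H3, 38.8% for HFD pan H4, and 26.7% and 28.6% for H3K4me3. An HFD interval with as many summits lay on 51.6%, and 52.9% held as many HFD summits. All 3 marks lay on 60.8% in control, and H3K4me3 with H4K16Ac on 11.7%. HFD H3K27me3 moved most, and the cause was not tested.

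With 4 or more summits there were 845 members, with a median spacing of 453 bp. Overlap was 100% with HFD total H3, HFD pan H4 and both H4K16Ac lists, 99.9% with control pan H4, 98.8% and 98.7% with H3K4me3 and 97.3% and 89.0% with H3K27me3. Summits within 50 bp made up 35.8% for HFD total H3, 32.5% and 36.7% for pan H4 and 23.4% for control H3K4me3. An HFD interval with 4 or more summits lay on 49.9%, and 52.3% held as many HFD summits. All 3 marks lay on 96.3%, H3K4me3 with H4K16Ac on 2.49% and H4K16Ac alone on 0.237%.

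Where at least 50% of the member had to be covered, the shares were 96.9% for HFD total H3, 97.0% and 98.8% for pan H4, 83.5% and 81.2% for H3K4me3, 99.8% and 99.7% for H4K16Ac and 79.9% and 52.0% for H3K27me3, with all 3 marks on 73.9%, H3K4me3 with H4K16Ac on 9.54% and H4K16Ac alone on 10.4%. Within 25 bp, the share of summits was 22.1% for HFD total H3, 20.0% and 23.7% for pan H4 and 14.2% and 14.9% for H3K4me3. Within 100 bp these shares were 57.2%, 53.3%, 58.8%, 38.8% and 40.1%. In members of 1000 to 1499 bp, overlap was 99.5% with HFD total H3, 93.3% and 92.5% with H3K4me3, 100% with both H4K16Ac lists and 85.0% and 65.7% with H3K27me3. With summits nearer than 150 bp counted as 1, only the overlap with control H4K16Ac moved, to 100%. With a local background of at most 10 times the most frequent, chosen after seeing the data, only that with HFD H4K16Ac moved, to 100%.

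The low background of the HFD H3K27me3 list limits it, since an unlisted region there is not shown to lack the mark. Pooled lists give no spread between animals, and the labels of 1 control total H3 library name both diets.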

Other observations

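Some members stand apart from the rest. The 8 members that no HFD total H3 interval overlapped had 3 summits each, widths of 1115 to 2111 bp and strongest folds of 1.995 to 4.35, below the median of 5.22 over members. Each held 1 or 2 control pan H4 summits, and 6 of them held a control H3K4me3 summit. They lie on chromosomes 3, 5, 6, 10, 12 and 17, for example chr6:132116235-132118345 and chr5:143926793-143928101. The mitochondrial genome, which has no histones, gave 1 member of 3 intervals, at bases 2742 to 4979, with 4 summits, a strongest pileup of 168 fragments, a background of 57.5 and a fold of 2.89. Unplaced sequences gave 20 members of 1079 intervals, or 1.85% (Wilson interval 1.20% to 2.85%). The share over the whole list, 2.18%, lies within that interval, so the unplaced members are not read as set apart.

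The HFD rule gave 4151 intervals with 3 or more summits, of which 20 had no control total H3 interval under them, 669 lay on control intervals with 1 summit and 1498 on intervals with 2. For HFD pan H4, 168 of its 5170 such intervals (3.25%) had no control total H3 interval, against 28 of 4044 (0.692%) for control pan H4. For H3K4me3 it was 1 of 1275 in control and 6 of 1302 in HFD. The shares over all intervals of these lists are not given here. The counts are thus not read as particular to intervals with 3 or more summits. The reverse overlap was highest for H3K4me3, where 63.1% of these intervals in control and 65.8% in HFD lay on a member. The share over all H3K4me3 intervals is not given. These intervals were also fewer and wider, with median widths of 1817 bp (control) and 1757 bp (HFD). In HFD total H3 and the pan H4 lists the medians were 1554 to 1657 bp. The part of width and number in this order was not tested.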
